A study of Homo sapiens with 30 samples.

Results

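RNA-seq libraries of PANC-1 hybrid tumoroids whose synthetic cells presented PD-1 together with TIGIT were compared with libraries of hybrids whose synthetic cells carried no protein. Membership was read from the sample titles, which place 3 libraries in each of these groups and so 6 of the 30 libraries of the series. PANC-1 is an established human cell line derived from a pancreatic ductal adenocarcinoma, and every culture was wild type for this line, with no drug and no living immune cell named in the labels. The synthetic cells were DSLBs, oil droplets enclosed by a supported lipid bilayer, which were mixed with the cancer cells and became part of the tumoroid. On the PD-1/TIGIT DSLBs the recombinant human ectodomains of both receptors were held by a polyhistidine tag, and plain DSLBs were left uncoupled. The remaining libraries were DSLB-free tumoroids, hybrids with PD-1 alone, and hybrids with PD-1 beside CD2, CD27, CD40L, CTLA4, ICOS or LAG3. Each culture was a whole tumoroid preparation of 1 cell line, and the study describes the 3 cultures of a group as parallel biological replicates. No group carried TIGIT without PD-1, or an unrelated protein, so that PD-1, TIGIT and the coupling of any protein to the droplet cannot be told apart from these 6 libraries.

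TIGIT and PD-1 are inhibitory receptors of T cells and natural killer cells. TIGIT binds the poliovirus receptor PVR (CD155) with high affinity and the related adhesion molecules nectin-2, nectin-3 and nectin-4 more weakly, whereas PD-1 binds PD-L1 and PD-L2. These ligands sit on tumor cells, where they also take part in cell adhesion or can pass signals into the cell that carries them, which is termed reverse signaling. The comparison addresses how the transcriptome of the tumor cells differs when the droplets among them display both receptors.

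The summed expected counts, RSEM's estimates of reads per gene, were 25.8, 36.8 and 37.0 M for plain DSLB hybrids and 37.6, 40.9 and 42.4 M for PD-1/TIGIT hybrids. None of these 6 libraries stood apart from the other replicates of its group. Mitochondrial genes took 4.73 to 5.19% of counts in plain and 4.30 to 4.6% in PD-1/TIGIT libraries. The epithelial and PANC-1 marker list held KRT8, KRT18, KRT19, KRT7, EPCAM, VIM and SOX9. Its sum was 6830 to 7270 TPM in plain and 8720 to 9030 TPM in PD-1/TIGIT hybrids. TPM is a level scaled by gene length and library size. KRT8, VIM, KRT18 and KRT19 were abundant and made up most of the sum, whereas KRT7 lay at 11.7 to 14.6 TPM in the 6 libraries. EPCAM, named after its value was seen, was lower and passed (log2 change −0.32). It had 63.1 to 73.7 TPM in plain and 49.5 to 53.1 TPM in PD-1/TIGIT hybrids. Of 10 T cell markers, CD3D, CD3E, TRAC and CD28 were at 0 TPM in all 6 libraries, and the list summed to 0.85 to 1.49 TPM. The 9 markers of other blood cells summed to 33.4 to 34.1 TPM in plain and 38.3 to 38.9 TPM in PD-1/TIGIT hybrids, most of it CD68, a lysosomal protein. CD14, a monocyte marker, was at 0.29 to 0.54 TPM in plain and 0.81 to 0.96 TPM in PD-1/TIGIT hybrids and passed the test (log2 change 1.24). The 9 stromal and endothelial markers summed to 305 to 345 TPM in plain and 160 to 201 TPM in PD-1/TIGIT hybrids. COL1A1 made up nearly all of that sum, while COL1A2, its partner chain in fibroblasts, stayed at or below 0.1 TPM in every library. The part of these marker and mitochondrial differences in the results was not tested.

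PD-1/TIGIT hybrids differed from plain DSLB hybrids in a large share of the transcriptome, mostly by modest amounts. By the quasi-likelihood test of edgeR, fitted to the 30 libraries together and adjusted by Benjamini-Hochberg with a threshold of 0.05, 2011 of the 18424 genes tested were higher (10.9%) and 2129 were lower (11.6%), together 4140 (22.5%), and 6448 (35%) had an unadjusted p under 0.05. Below, SE is the standard error of a log2 fold change, log2 change for short. The median size of the log2 fold change was 0.389 among higher and 0.404 among lower genes. At least a 2-fold difference was found for 139 higher and 260 lower genes, and at least a 3-fold difference for 34 and 91. The 3 libraries of one group did not overlap the 3 of the other in CPM (counts scaled to library size with TMM factors) for 9041 genes (49.1%), and for 4106 of the 4140 differentially expressed genes (DEGs). Without PD-1/TIGIT replicate 2 the test called 2576 genes, 1307 higher and 1269 lower. In RNA from whole cultures, a change in the share of cells in a given state and a change in RNA per cell cannot be told apart.

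The genes with the largest increases included a chemokine, metabolic enzymes and signaling proteins. These and the largest decreases were ranked among DEGs with a mean of at least 50 counts and no overlap between groups. CCL5, a chemokine that attracts T cells (chr17:35871491-35880793, GRCh38), had 2.28, 2.05 and 2.14 CPM in plain and 6.24, 7.06 and 6.89 CPM in PD-1/TIGIT hybrids. ALDOC, an aldolase of glycolysis (ENSG00000109107.12, chr17:28573115-28576948), had 21.8, 26.5 and 25.1 CPM in plain and 83.6, 76.8 and 65.6 CPM in PD-1/TIGIT hybrids. For both genes every PD-1/TIGIT library lay far above every plain library, but no overlap between the groups was a condition for choosing them. TGM2, a transglutaminase that crosslinks proteins (chr20:38127385-38166578), went from 28.9, 24.7 and 30.7 CPM to 90.9, 81.9 and 76.9 CPM. The log2 fold changes were 1.64 for CCL5 (± 0.18 SE, edgeR adjusted p = 2.00e-07), 1.62 for ALDOC (0.12, edgeR adjusted p = 9.97e-11) and 1.57 for TGM2 (0.13, edgeR adjusted p = 1.98e-09). DHRS3, a retinal reductase of vitamin A metabolism (chr1:12567910-12618210), rose by 1.27, from 14.5 to 16.1 CPM in plain up to 34.7 to 38.1 CPM in PD-1/TIGIT hybrids. Mitochondrial enzymes were ALDH1L2 of folate metabolism (1.36) and PCK2, a phosphoenolpyruvate carboxykinase (1.24). RASD2, a small GTPase related to Ras (chr22:35540831-35553999), rose by 1.35, from 11.8 to 15.7 CPM up to 32.7 to 36.4 CPM. PFKFB4, which makes an activator of glycolysis, rose by 1.29, IL15RA, the receptor chain that presents interleukin 15, by 1.27 and HMOX1, heme oxygenase 1, by 1.21. HMOX1 had 71.8, 43.4 and 65.0 CPM in plain and 134, 150 and 134 CPM in PD-1/TIGIT hybrids, so that the plain cultures varied more than the PD-1/TIGIT cultures. Further genes among the 15 were BEX4, a regulator of tubulin acetylation (1.36), LCNL1, a lipocalin-like gene (1.36), PRR35 (1.22) and MST1L (1.23). MST1L is a near-identical copy of MST1, and reads shared by such copies make its value uncertain.

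The genes with the largest decreases had various roles, among them a ferroxidase, a peptide hormone, a transcription factor and matrix proteins. CP, ceruloplasmin, a copper-binding ferroxidase (ENSG00000047457.12, chr3:149162410-149221829), had 95.9, 94.1 and 99.3 CPM in plain and 19.5, 19.0 and 22.1 CPM in PD-1/TIGIT hybrids. TNC, the matrix glycoprotein tenascin C (chr9:115019575-115118207), had 177, 154 and 157 CPM in plain and 46.5, 39.9 and 43.1 CPM in PD-1/TIGIT hybrids. FN1, fibronectin, had 72.7, 61.9 and 63.4 CPM in plain and 21.6, 21.1 and 19.6 CPM in PD-1/TIGIT hybrids. The groups were widely separated for all 3 genes, which were chosen among genes without overlap, and the replicates within a group lay close together. The log2 fold changes were −2.25 for CP (± 0.10 SE, edgeR adjusted p = 1.99e-14), −1.92 for TNC (0.12, edgeR adjusted p = 1.62e-11) and −1.67 for FN1 (0.11, edgeR adjusted p = 4.67e-11). MECOM, a zinc finger transcription factor (chr3:169083499-169663775), had 13.4, 12.7 and 14.8 CPM against 4.29, 3.01 and 2.98 CPM, a log2 fold change of −1.99. NTS, the peptide hormone neurotensin, had the largest decrease of the 15 genes so ranked (−2.44), from 7.24 to 10.2 CPM down to 1.41 to 2.02 CPM. Further matrix and adhesion genes were COL14A1, a fibril-associated collagen (−1.70), HMCN1, hemicentin (−1.68), FAT3, an atypical cadherin (−1.76), and the immunoglobulin superfamily members IGSF10 (−2.32) and IGSF9 (−1.88). SEMA5A, a semaphorin (−1.86), LRP1B, an endocytic receptor (−1.73), MME, the surface peptidase neprilysin (−1.72), VAV3, an activator of small GTPases (−2.06), and DIPK1C (−2.19) completed the 15. None of the 30 genes chosen for their size lost its call or its direction in any alternative processing that was run.

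**Figure D1:**
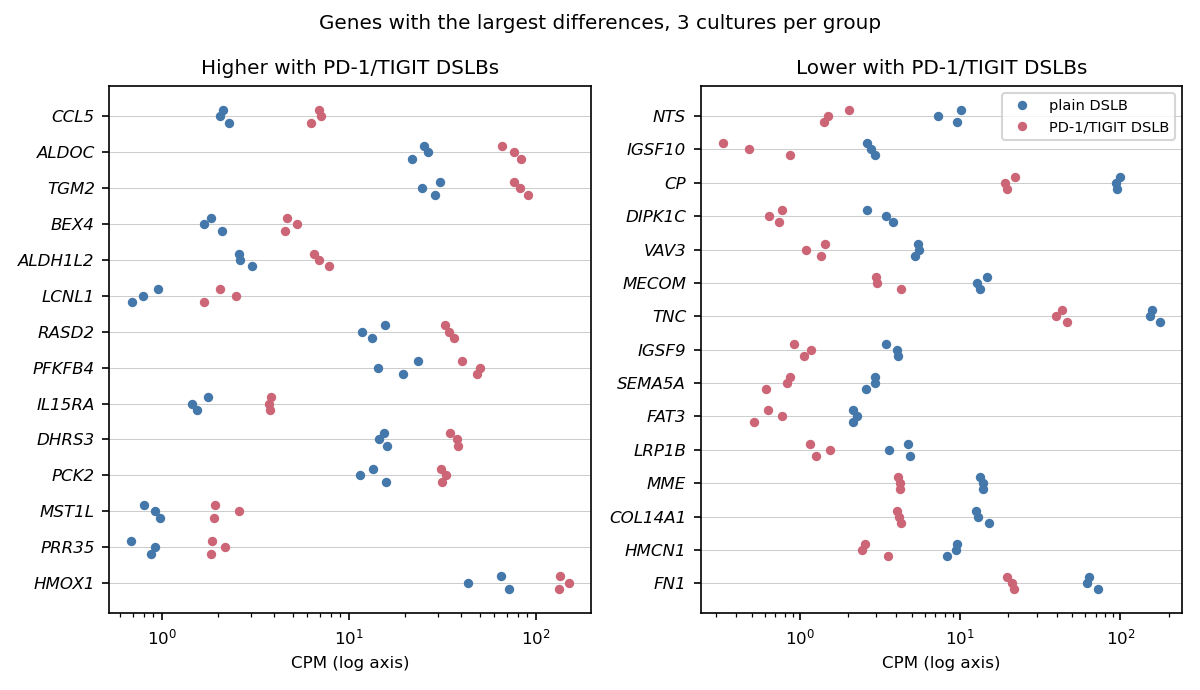
CPM on a log axis for 14 of the 15 genes with the largest increases (left) and the 15 with the largest decreases (right), 1 point per culture, 3 plain DSLB (blue) and 3 PD-1/TIGIT (red) cultures. Only DEGs with a mean of at least 50 counts and no overlap were ranked, so the red and blue points of each gene are separate. CP, for example, lay at 94.1 to 99.3 CPM in plain and 19.0 to 22.1 CPM in PD-1/TIGIT hybrids.

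Among the binding partners of the displayed receptors, PVR, NECTIN3 and NECTIN4 fell and NECTIN2 rose, each by an amount that passed the test. PVR, the main TIGIT ligand (chr19:44643798-44666162), had 21.2, 21.7 and 21.8 TPM in plain and 14.4, 15.1 and 15.3 TPM in PD-1/TIGIT hybrids. Its log2 fold change of −0.35 (± 0.07 SE, edgeR adjusted p = 6.10e-04) was computed on counts and is smaller than the TPM difference. NECTIN2 (chr19:44846175-44889223), the most abundant of these ligands, had 62.3, 55.8 and 56.9 TPM in plain and 64.5, 64.8 and 64.4 TPM in PD-1/TIGIT hybrids. Its log2 fold change of 0.30 (± 0.07 SE, edgeR adjusted p = 0.00490), also computed on counts, is larger than the TPM difference. In DSLB-free tumoroids NECTIN2 had 57.5, 75.3 and 62.7 TPM. Of the 4 partners tested, 0 were higher and 3 lower in PD-1/TIGIT hybrids than in DSLB-free tumoroids. NECTIN3 had 16.6, 16.8 and 17.6 TPM against 12.8, 9.29 and 9.96 TPM, a log2 fold change of −0.44 (± 0.13 SE, edgeR adjusted p = 0.0123). NECTIN4 rested on few reads, 28, 14 and 7 counts in plain and 3, 3 and 2 counts in PD-1/TIGIT hybrids (log2 change −2.76 ± 0.49 SE, edgeR adjusted p = 1.63e-04). CD274, which codes for PD-L1, was nearly absent from both groups. It had 3, 4 and 3 counts in plain and 7, 2 and 3 counts in PD-1/TIGIT hybrids, below the filter on low counts, so a difference was not detectable at this depth. PDCD1LG2, which codes for PD-L2, had 0 counts in all 6 libraries, which allows up to 3 counts per library by counting error alone. Of the displayed receptors' own transcripts, TIGIT had 0 to 2 counts per library. PDCD1, which codes for PD-1, had 0.357 ± 0.0643 TPM in plain and 0.397 ± 0.245 TPM in PD-1/TIGIT hybrids (SD, n = 3), and its log2 change of −0.02 (± 0.31 SE) did not pass. In PD-1 hybrids without TIGIT the level of PVR was 14.6 to 16.2 TPM, and that of NECTIN4 was 3 to 5 counts.

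**Figure D2:**
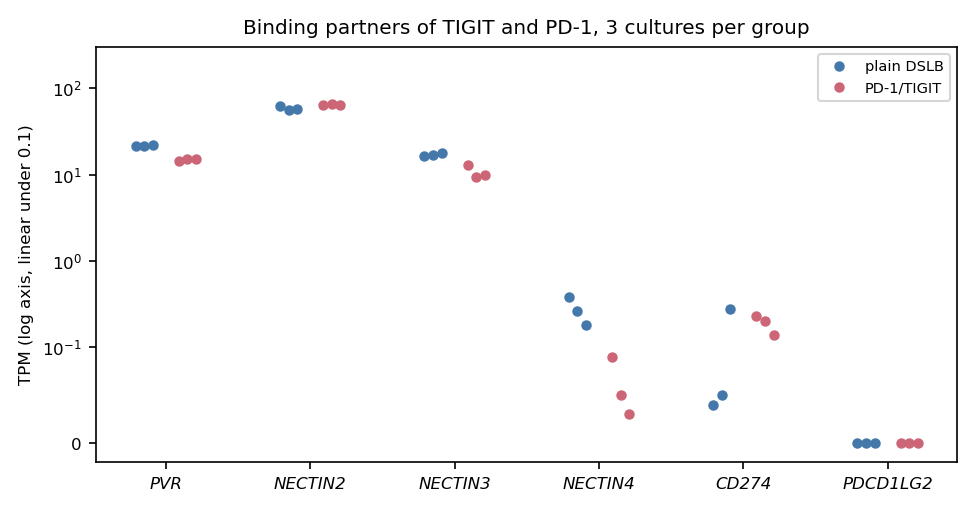
TPM of 6 genes that code for ligands of TIGIT or PD-1, 1 point per culture, on an axis that is logarithmic above 0.1 TPM and linear below. PVR and NECTIN3 lie lower in the 3 PD-1/TIGIT (red) than in the 3 plain DSLB (blue) cultures, and CD274 and PDCD1LG2 lie near or at 0 in both.

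Glycolytic enzymes rose together. Of 18 glycolysis genes 16 were higher, all 18 had a positive log2 fold change, and the median was 0.47, beside 0.0034 over all genes tested. Besides ALDOC, the hexokinase HK2, at 15.4, 12.3 and 18.1 CPM in plain and 29.9, 31.0 and 26.3 CPM in PD-1/TIGIT hybrids, rose by 0.94 (± 0.11 SE, edgeR adjusted p = 8.04e-07). ENO2, an enolase, rose by 0.75 and GPI, glucose-6-phosphate isomerase, by 0.71. Of 20 hypoxia response genes, some of which are also glycolytic, 13 were higher and 2 lower, with a median of 0.51. BNIP3, a mitophagy receptor, had 156, 176 and 184 CPM in plain and 304, 341 and 300 CPM in PD-1/TIGIT hybrids (log2 change 0.87 ± 0.09 SE, edgeR adjusted p = 1.41e-07). PDK1, a pyruvate dehydrogenase kinase, had 23.1, 26.8 and 27.0 CPM against 50.8, 54.5 and 45.1 CPM and rose by 0.97. Every PD-1/TIGIT library lay above every plain library for both genes, but 4106 of the 4140 DEGs likewise had no overlap. The hypoxia genes that fell, named after their values were seen, were SLC2A3, a glucose transporter (−1.13), and EGLN3, an oxygen sensor (−0.50), whereas the transporter SLC2A1 rose by 0.56 and VEGFA by 0.43.

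The promoter of ALDOC is shown because it holds the core of the hypoxia response element, the letters ACGTG on either strand (CACGT when read from the other). The sequence is the 250 bases before the RefSeq start site on GRCh38.p14, chr17:28576896-28577145, minus strand, read 5′ to 3′, with matches in capitals.
ALDOC promoter: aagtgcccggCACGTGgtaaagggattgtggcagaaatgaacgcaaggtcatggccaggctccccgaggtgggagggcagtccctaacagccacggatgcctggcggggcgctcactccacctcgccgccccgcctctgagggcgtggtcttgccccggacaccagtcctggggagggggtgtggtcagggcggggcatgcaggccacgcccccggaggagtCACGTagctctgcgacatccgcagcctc
It holds 3 matches, 2 of which overlap because CACGTG reads the same on both strands. The motif was found in 22.8% of the 12379 promoters of this length among genes tested, in 24.0% of those of higher and 21.5% of those of lower genes. It was present in 9 of 16 hypoxia promoters (56.2%) and 8 of 18 glycolysis promoters (44.4%). A match is a string of letters and not evidence of binding.

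Genes of amino acid shortage and the unfolded protein response changed in both directions. Of 22 genes of the list, 13 were higher and 4 lower, with a median of 0.40. ATF3, a stress-induced transcription factor, had 7.79, 5.90 and 6.10 CPM in plain and 13.3, 15 and 14.5 CPM in PD-1/TIGIT hybrids, a log2 fold change of 1.11 (± 0.11 SE, edgeR adjusted p = 3.91e-08). SESN2, a leucine sensor that restrains mTORC1, had 13.5, 10.5 and 14.6 CPM against 26.4, 26.6 and 25.3 CPM, a log2 fold change of 1.03. ASNS, asparagine synthetase, and PSAT1 of serine synthesis rose by 0.78 and 0.83, and like nearly all DEGs they had no overlap between groups. Named after their values were seen, CHAC1, which degrades glutathione, rose by 1.21, TRIB3, a pseudokinase, by 0.99, DDIT3, a transcription factor of the stress response, by 0.94 and the transcription factor ATF4 itself by 0.45. Also named after their values were seen, VLDLR, a lipoprotein receptor, rose by 1.07 and HERPUD1, a component of protein degradation at the endoplasmic reticulum, by 0.35. The 4 lower genes, also named after their values were seen, were chaperones and folding factors of the endoplasmic reticulum, HSP90B1 (−0.33), HYOU1 (−0.29), PDIA4 (−0.24) and MANF (−0.22), and HSPA5, the central chaperone there, had a log2 fold change of 0.07. Of 18 NRF2 target genes of the oxidative stress response, 12 were higher and 1 lower, with a median of 0.25. ME1, malic enzyme, rose by 0.66 and OSGIN1 by 0.64, and the lower gene was ABCC2, an export pump (−0.78). HSPH1, a cytosolic chaperone, fell from 292 to 301 CPM to 183 to 200 CPM (log2 change −0.64 ± 0.06 SE, edgeR adjusted p = 2.22e-08), and of 12 heat shock genes 3 were lower and 1 higher.

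The promoter of CHAC1 is shown for the ATF4 composite motif TGATGNAA (TTNCATCA when read from the other strand). The sequence is the 250 bases before the RefSeq start site on GRCh38.p14, chr15:40953221-40953470, plus strand, with the match in capitals on the reverse strand.
CHAC1 promoter: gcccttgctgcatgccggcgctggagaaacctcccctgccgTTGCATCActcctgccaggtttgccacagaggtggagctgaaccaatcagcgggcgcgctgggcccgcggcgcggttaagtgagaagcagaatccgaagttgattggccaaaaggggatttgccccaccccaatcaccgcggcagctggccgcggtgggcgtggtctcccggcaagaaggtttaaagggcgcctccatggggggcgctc
The motif stood in 1.37% of all promoters searched, in 2.08% of those of higher and 1.55% of those of lower genes, and in 4 of 21 promoters of the list (19.0%).

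Interferon-induced genes and the MHC class I pathway, which displays peptides to T cells, were higher. Of 25 interferon response genes 11 were higher and 1 was lower (OAS3, −0.29, named after its value was seen), with a median of 0.39. OASL, an antiviral protein of the OAS family, had 7.31, 8.61 and 8.24 CPM in plain and 14, 15 and 15.8 CPM in PD-1/TIGIT hybrids (log2 change 0.89 ± 0.10 SE, edgeR adjusted p = 3.29e-07). The RNA-binding restriction factors IFIT1, IFIT2 and IFIT3 rose by 0.65, 0.68 and 0.72. Of 16 MHC class I genes 10 were higher, with a median of 0.34. HLA-B had 79.5, 69.8 and 66.8 CPM in plain and 111, 119 and 118 CPM in PD-1/TIGIT hybrids (log2 change 0.69 ± 0.07 SE, edgeR adjusted p = 1.41e-07), although reads can be shared among HLA genes. B2M, the invariant light chain, had 424, 417 and 390 CPM against 566, 597 and 631 CPM and rose by 0.54. PSMB8, a subunit of the immunoproteasome, rose by 0.65, and the ranges of the groups were apart for these 3 genes, as for nearly all DEGs.

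The promoter of BST2, the membrane tether of enveloped viruses (log2 fold change 0.79, named after its value was seen), is shown for the interferon response motif, GAAA followed by any 2 bases and GAAA again, searched on both strands. The sequence is the 250 bases before the RefSeq start site on GRCh38.p14, chr19:17405631-17405880, minus strand.
BST2 promoter: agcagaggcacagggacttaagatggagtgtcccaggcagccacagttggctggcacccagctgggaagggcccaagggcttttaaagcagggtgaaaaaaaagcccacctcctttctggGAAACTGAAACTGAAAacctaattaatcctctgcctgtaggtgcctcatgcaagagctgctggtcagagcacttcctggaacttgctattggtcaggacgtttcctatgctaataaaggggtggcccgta
Its 2 matches, in capitals, overlap. The motif was found in 2.40% of all promoters searched, in 2.68% of those of higher and 2.73% of those of lower genes, and in 11 of 19 interferon promoters (57.9%).

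Of 14 immune suppressive factors 5 were higher and 1 was lower, with a median of 0.21. LGALS1, galectin 1, a lectin that acts on T cells, had 322, 351 and 335 CPM in plain and 514, 522 and 512 CPM in PD-1/TIGIT hybrids (log2 change 0.62 ± 0.12 SE, edgeR adjusted p = 4.59e-04). VSIR, the checkpoint ligand VISTA, had 11.3, 9.11 and 9.69 CPM against 15.7, 16.6 and 17.4 CPM and rose by 0.72. LGALS3, galectin 3, rose by 0.46, and ARG2, an arginase, by 1.70 from a level below 1 CPM. NT5E (CD73), an enzyme of adenosine production, was lower at −0.33 and was named after its value was seen. Of 18 NF-kB targets and cytokines 6 were higher and 3 lower, among them the adhesion molecule ICAM1 (0.38) and the chemokine CXCL1 (−0.58), and the median was 0.05.

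More matrix, junction and Hippo pathway genes were lower than higher. Of 24 collagen, laminin and matrix genes 12 were lower and 4 higher, with a median of −0.26, and with the gene length trend removed 9 were lower and 6 higher, with a median of −0.14. TNC and FN1, described with the largest decreases, belong to this list. The opposite direction was seen for SPARC, a matricellular protein, at 109, 90.9 and 97.1 CPM in plain and 168, 156 and 151 CPM in PD-1/TIGIT hybrids (0.68). Of 22 nectin and cadherin junction genes 9 were lower and 1 higher, with a median of −0.17, and with the trend removed 6 were lower and 3 higher, with a median of −0.07. CDH3, P-cadherin (chr16:68636189-68727468), had 128, 105 and 107 CPM in plain and 52.1, 51.1 and 50.6 CPM in PD-1/TIGIT hybrids, a log2 fold change of −1.14 (± 0.06 SE, edgeR adjusted p = 6.82e-13). DSP, desmoplakin, which anchors keratin filaments at desmosomes, had 232, 214 and 212 CPM against 120, 102 and 99.9 CPM, a log2 fold change of −1.03. CDH1, E-cadherin, fell by 0.69 and CADM1, another adhesion molecule, by 0.71. Of the keratins, which such junctions anchor, KRT19 rose by 0.81, KRT18 by 0.52 and KRT8 by 0.51. KRT7 (0.14) and KRT17 (−0.31), named after their values were seen, did not pass. The epithelial and mesenchymal list did not move one way, with 10 of 18 genes lower and 6 higher. Its lower genes held epithelial (CDH1, ST14) and mesenchymal (FN1, SNAI2) members, and its higher genes also held both (KRT19, VIM).

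Of 18 Hippo pathway genes, targets as well as components such as YAP1 and TEAD1, 6 were lower and 1 was higher, with a median of −0.21. CCN2 (connective tissue growth factor) had 73.1, 61.0 and 66.8 CPM in plain and 41.1, 37.6 and 40.6 CPM in PD-1/TIGIT hybrids (log2 change −0.75 ± 0.09 SE, edgeR adjusted p = 1.56e-06). CCN1, a related matricellular protein, fell by 0.63 and AMOTL2, an angiomotin, by 0.61. With the gene length trend removed the median of the list was −0.03, with 3 lower and 2 higher, while CCN1, CCN2 and AMOTL2 still passed. The promoter of CCN2 is shown for the TEAD motif GGAATG on either strand, through which YAP and TAZ act. The sequence is the 250 bases before the RefSeq start site on GRCh38.p14, chr6:131951373-131951622, minus strand, with its 3 matches in capitals.
CCN2 promoter: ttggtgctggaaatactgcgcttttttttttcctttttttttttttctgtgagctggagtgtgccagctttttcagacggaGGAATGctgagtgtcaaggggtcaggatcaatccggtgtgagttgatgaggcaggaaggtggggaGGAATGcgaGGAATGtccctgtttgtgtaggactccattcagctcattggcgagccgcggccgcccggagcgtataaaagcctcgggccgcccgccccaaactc
The motif was found in 9.31% of all promoters searched, in 8.64% of those of higher and 8.93% of those of lower genes, and in 5 of 12 Hippo promoters (41.7%). Among the 3 Hippo promoters searched whose genes passed as lower, only 1 held it, that of CCN2.

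Proliferation genes were lower. Of 27 DNA replication genes 13 were lower and 1 was higher (MCM5, 0.19, named after its value was seen), with a median of −0.23. MCM4, part of the replicative helicase, had 105, 99.1 and 101 CPM in plain and 77.0, 74.4 and 79.4 CPM in PD-1/TIGIT hybrids (log2 change −0.40 ± 0.06 SE, edgeR adjusted p = 1.08e-05). CDC6, a licensing factor, fell by 0.47 and E2F1, a transcription factor of entry into S phase, by 0.41. Of 24 mitosis genes 11 were lower, 22 had a negative log2 fold change, and the median was −0.27. MKI67, which codes for the proliferation antigen Ki-67, had 224, 178 and 201 CPM in plain and 119, 91.7 and 101 CPM in PD-1/TIGIT hybrids (log2 change −0.95 ± 0.19 SE, edgeR adjusted p = 9.36e-04). TOP2A, a topoisomerase, had 262, 235 and 252 CPM against 167, 166 and 184 CPM and fell by 0.54. The groups did not overlap for these genes, as for nearly all DEGs. CDK1, a main mitotic kinase, and CCNB1, its cyclin, had log2 fold changes of −0.03 and −0.14 that did not pass. Of 12 replication-dependent histone genes 5 were lower, among them H1-2 (−0.45) and H4C8 (−1.07).

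Cytosolic ribosomal protein and respiratory chain genes, most of them short, were higher by small amounts. Of 40 cytosolic ribosomal protein genes 26 were higher, all 40 had a positive log2 fold change, and the median was 0.33. RPL19 had 495, 498 and 496 CPM in plain and 642, 675 and 676 CPM in PD-1/TIGIT hybrids (log2 change 0.42 ± 0.08 SE, edgeR adjusted p = 2.40e-04). Of 30 nuclear-encoded subunits of the respiratory chain 20 were higher, with a median of 0.35, as for COX7C of complex IV at 0.44. The 13 mitochondrially encoded mRNAs had a median of −0.33, and 11 had a negative log2 fold change, but only 1 passed, MT-ND6 (−0.78). That share of 7.7% lies below the 22.5% of all genes, so a shift of this list was not established. Its median was −0.08 for PD-1/TIGIT hybrids against DSLB-free tumoroids, and 0.21 for plain DSLB hybrids against DSLB-free tumoroids. With the gene length trend removed, 16 cytosolic ribosomal protein genes were still higher with a median of 0.17, and 7 respiratory chain genes with a median of 0.20. Mitochondrial ribosomal protein genes had 4 of 21 higher (median 0.21), and 0 with that trend removed (median 0.09).

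**Figure D3:**
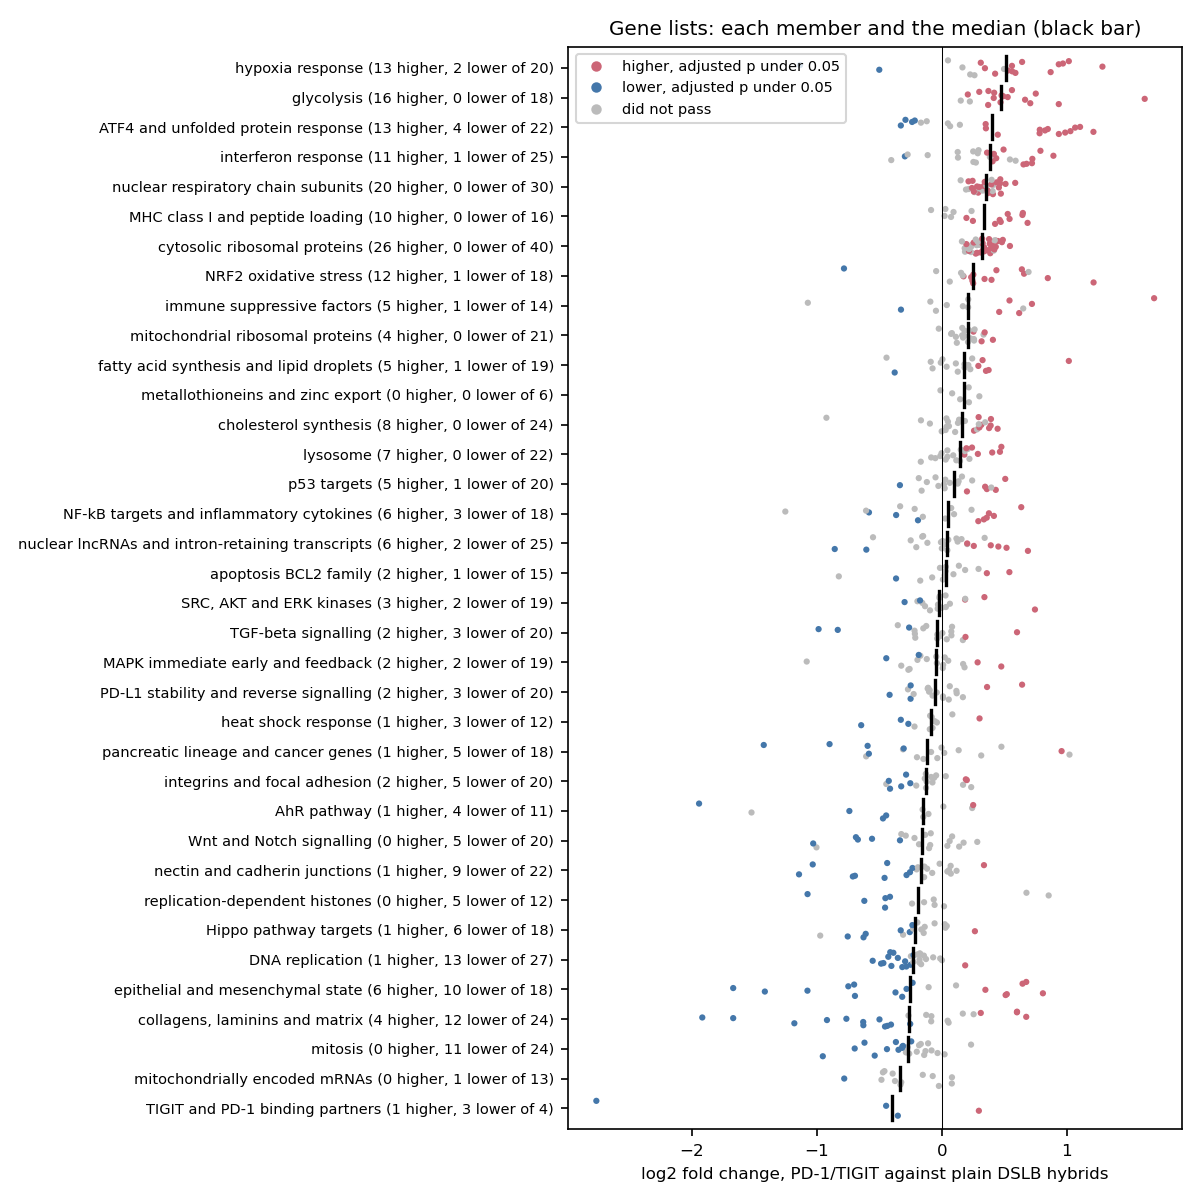
Log2 fold change of PD-1/TIGIT against plain DSLB hybrids for each tested member of 36 gene lists, 1 point per gene, with the median of a list as a black bar. Hypoxia response and glycolysis lie highest, with medians of 0.51 and 0.47, and matrix, mitosis and DNA replication lie on the lower side, with medians of −0.26, −0.27 and −0.23.

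Smaller shifts were found in further pathways. Of 24 cholesterol synthesis genes 8 were higher, with a median of 0.16, among them IDI1 (0.45), INSIG1 (0.39) and CYP51A1 (0.39). Of 22 lysosome genes 7 were higher, among them PSAP, the precursor of the saposins (0.47), and LIPA, the lysosomal lipase (0.48). ANGPTL4, a secreted inhibitor of lipoprotein lipase, had 65.9, 53.8 and 67.3 CPM in plain and 109, 151 and 118 CPM in PD-1/TIGIT hybrids (log2 change 1.02 ± 0.15 SE, edgeR adjusted p = 2.59e-05), and 5 of 19 lipid genes were higher and 1 lower. Of 11 genes of the aryl hydrocarbon receptor pathway 4 were lower and 1 higher. ALDH3A1, an aldehyde dehydrogenase, had the largest decrease (−1.94), from 0.343 to 1.01 CPM in plain to 0.165 to 0.197 CPM in PD-1/TIGIT hybrids, and the target gene CYP1B1 lay at 206 to 221 CPM in plain and 127 to 129 CPM in PD-1/TIGIT hybrids (−0.74). Of 20 Wnt and Notch genes 5 were lower, among them the receptors NOTCH1 (−0.67) and NOTCH2 (−0.56) and the ligand JAG1 (−0.69). The 25% of this list that passed lay near the 22.5% of all genes. Of 18 pancreatic lineage and cancer genes 5 were lower and 1 higher, the last being the transcription factor PDX1 (0.96). BMP4, a growth factor, and ID3, its target, fell by 0.99 and 0.83. Among kinases of reverse signaling, FYN, a kinase of the SRC family, rose by 0.75, from 3.34 to 4.45 CPM up to 6.16 to 6.65 CPM. Of 19 SRC, AKT and ERK kinase genes 3 were higher and 2 lower, of 20 genes of PD-L1 stability and reverse signaling 2 and 3, of 20 p53 targets 5 and 1, of 19 MAPK feedback genes 2 and 2, of 20 integrin and focal adhesion genes 2 and 5, of 20 TGF-beta genes 2 and 3, and of 15 BCL2 family genes 2 and 1. These shares lie near or below the 22.5% of all genes that passed, except for the integrin (35%) and p53 (30%) lists. Among protein-coding genes 26.3% passed, closer to the share of the p53 list. With the gene length trend removed, 4 integrin genes were higher and 1 was lower, a reversal of the balance.

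The direction of change followed gene length. The median length was 1512 bases for higher, 3583 bases for lower and 1986 bases for all genes tested. In 5 bins with equal numbers of genes, among the shortest, 63 to 1068 bases, 542 were higher and 71 lower with a median log2 fold change of 0.19, and among the longest, from 3483 bases, 121 were higher and 1119 lower with a median of −0.17. The mean gene length per count was 2.63 to 2.65 kb in plain and 2.46 to 2.54 kb in PD-1/TIGIT libraries. When a smooth trend on length was removed in each library, 1948 genes were higher (10.6%) and 1479 lower (8.03%), and 2663 of the 4140 DEGs passed in the same direction. Of the DEGs, 40 had the opposite sign in that fit. ALDOC (1.57), CP (−2.13) and TNC (−1.66) passed there, as did glycolysis with 16 of 18 genes higher (median 0.43), interferon response with 14 of 25 (0.34), MHC class I with 8 of 16 (0.31), and DNA replication with 13 of 27 lower (−0.22). The matrix, junction, Hippo, ribosomal protein and respiratory chain lists moved toward 0 in that fit, with the values given beside each, and the Wnt and Notch list had 4 lower and 1 higher with a median of −0.06, against −0.16.

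**Figure D4:**
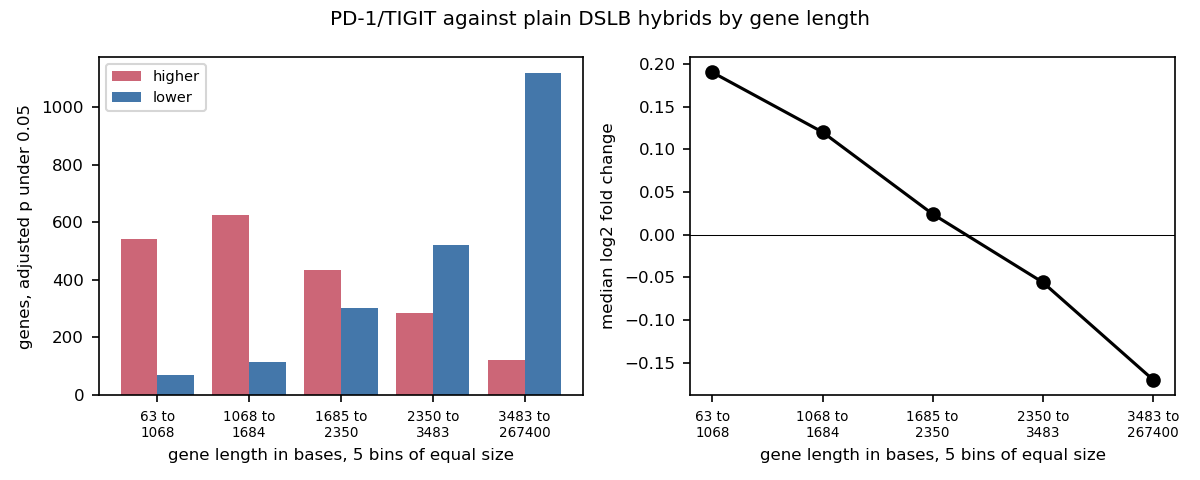
Genes higher (red) and lower (blue) in PD-1/TIGIT than in plain DSLB hybrids (left) and the median log2 fold change (right) in 5 bins of gene length in bases with equal numbers of genes. Lower genes rise from 71 in the shortest to 1119 in the longest bin, and higher genes number 542 and 121 in these bins with a peak of 626 in the second.

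No gene set PD-1/TIGIT apart from PD-1 alone in the edgeR test. Between PD-1/TIGIT and PD-1 hybrids edgeR called 0 of 18424 genes (0%), with 681 at an unadjusted p under 0.05 (3.7%), and the smallest adjusted p from edgeR was 0.892. On all libraries limma-voom called 0 and DESeq2 1, and on the 6 libraries compared edgeR called 1 and DESeq2 28. This does not show that the groups were alike, but the 95% interval of the difference lay within 0.5 log2 units of 0 for 12197 genes and for 3484 of the 4140 DEGs above. For CP, PD-1 hybrids had 22.8 ± 1.77 CPM (SD, n = 3) and PD-1/TIGIT hybrids 20.2 ± 1.70 CPM, a difference of −0.17 log2 units with an interval from −0.38 to 0.04. For ALDOC the levels were 89.3 ± 8.36 and 75.3 ± 9.10 CPM, and the interval was −0.47 to −0.02. Over the glycolysis list the median difference between PD-1/TIGIT and PD-1 was −0.15, and over the mitochondrially encoded mRNAs it was 0.47, where mitochondrial genes took 2.66, 3.95 and 4% of counts in the PD-1 libraries. The lowest share belonged to PD-1 replicate 1, which stood apart from the other replicates of its group, and its part in that median was not tested. Without the 4 libraries of the series that stood apart edgeR also called 0 genes between PD-1/TIGIT and PD-1. PD-1 hybrids, set against the same plain DSLB libraries, had 2084 genes higher (11.3%) and 1970 lower (10.7%).

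Few genes set plain DSLB hybrids apart from DSLB-free tumoroids. Between plain DSLB hybrids and DSLB-free tumoroids 2 genes passed (0.0109%), with 1123 at an unadjusted p under 0.05 (6.1%), and DESeq2 on all libraries called 15. DSLB-free replicate 2 stood apart from its group, with 3.19% mitochondrial counts against 4.81 and 4.98%, and without the 4 libraries that stood apart 1 gene passed. Against DSLB-free tumoroids, PD-1/TIGIT hybrids had 2450 genes higher (13.3%) and 2276 lower (12.4%), with 37.1% of genes at an unadjusted p under 0.05. PD-1 hybrids against DSLB-free tumoroids share no library with the comparison of PD-1/TIGIT and plain DSLB hybrids, and gave 2579 genes higher (14%) and 2283 lower (12.4%), with 37.3% at an unadjusted p under 0.05. Of the 2011 genes higher with PD-1/TIGIT, 1480 (73.6%) were also higher in this separate set of libraries, and of the 2129 lower genes 1379 (64.8%) were also lower. Opposite calls were found for 2 genes. The 2859 shared calls were 69.1% of the DEGs of PD-1/TIGIT against plain and 58.8% of those of PD-1 against DSLB-free, and both came from 1 model that shares its estimate of the spread. All 15 higher and all 15 lower genes chosen for their size passed in the same direction. Of the lists, glycolysis had 17 of 18 genes higher (median 0.61), hypoxia response 15 of 20 (0.72), interferon response 15 of 25 (0.37), and DNA replication 22 of 27 genes lower (−0.35). The integrin list had 5 of 20 higher (median 0.03), against 5 lower and 2 higher with PD-1/TIGIT, and the p53 list had a median of 0.0022. PVR, NECTIN2 and NECTIN3 did not pass there, with log2 fold changes of −0.17, 0.18 and −0.25, whereas NECTIN4 did (−2.38).

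Across the whole series the leading genes differed in level between groups without and with PD-1 on the droplets. All groups with a coupled protein carried PD-1, so PD-1 and the coupling of any protein cannot be told apart here either. ALDOC lay at 20.4 to 28.6 CPM in DSLB-free tumoroids, at 65.6 to 83.6 CPM with PD-1/TIGIT and at 72.2 to 105 CPM in the 21 libraries of the other 7 PD-1 groups. CP lay at 80.8 to 97.8, 19.0 to 22.1 and 19.8 to 31.0 CPM in the same order. PFKFB4 had 16.9 to 22.0 CPM without DSLBs and 40.2 to 50.2 CPM with PD-1/TIGIT, below the 50.8 to 66.8 CPM of the other PD-1 groups, although its difference from PD-1 alone did not pass. For 14 of the 15 higher genes all 21 libraries lay above all DSLB-free libraries, compared with 7.01% of all genes, and for 15 of the 15 lower genes all 21 lay below, compared with 6.8% of all genes. The exception was MST1L, with 1.48 CPM in the lowest PD-1 library and 1.56 CPM in the highest DSLB-free library.

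**Figure D5:**
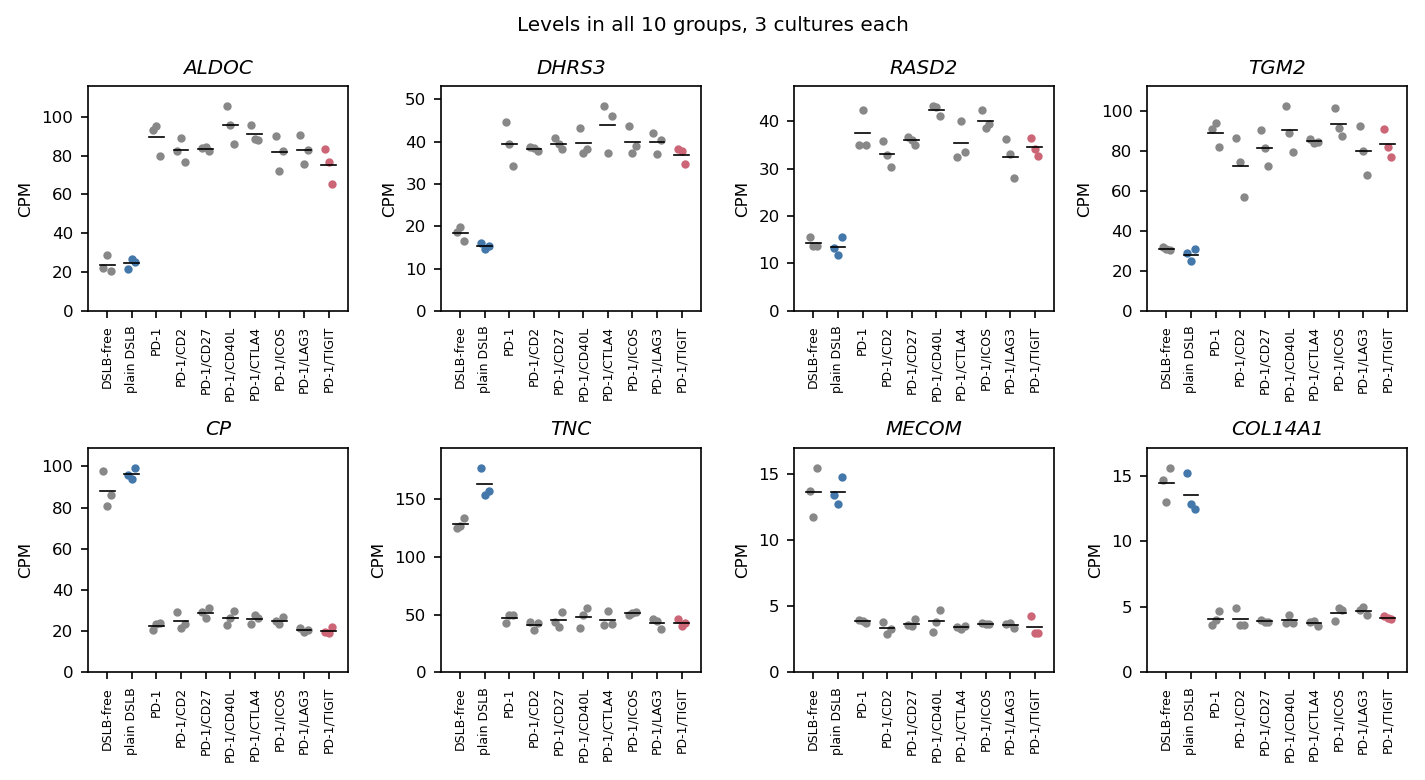
CPM in all 10 groups for 8 genes, 4 higher (top) and 4 lower (bottom) with PD-1/TIGIT (red) than with plain DSLBs (blue), 1 point per culture and the group mean as a line. The 2 groups without PD-1 lie to one side of the 8 groups with PD-1. TNC, for example, lies at 125 to 134 CPM without DSLBs, 154 to 177 CPM with plain DSLBs and 36.4 to 56.0 CPM with PD-1.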

How the data were processed

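RNA-seq was available for 30 cultures in 10 groups of 3, assigned by their sample titles. Reads were single-end, 75 nt long. The authors trimmed them and used STAR (genome hg38) and RSEM for quantification at gene level. In their processing notes Trim Galore 0.3.3, FastQC 0.11.2 and SAMtools 1.3.1 also appear. Antisense, overlapping and duplicated genes are uncertain, since the strand setting in RSEM is not given in the sources used here. Nor are the annotation release and any step of rRNA removal. The deposited expected counts are RSEM estimates that the authors did not normalize. The deposited TPM values are scaled by gene length by the authors and served for levels only, as did the deposited lengths per gene for the length trend.

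Each library held 60483 records, of which 56321 were matched to a symbol. Expected counts were rounded, filtered with filterByExpr (18424 genes) and scaled by TMM. The test was edgeR 4.0.16 (quasi-likelihood, robust), fitted to the 30 libraries together with 1 coefficient for each group, Benjamini-Hochberg adjustment over all genes and a threshold of 0.05 without a fold threshold. Other software was R 4.3.3 with DESeq2 1.42.0 and limma 3.58.1, and Python 3.11.15 with matplotlib 3.10.9, pandas 2.3.3 and numpy 2.4.6. Standard errors are the log2 fold change over the root of F. Gene positions were looked up by identifier in GENCODE v44 (GRCh38). Promoters are from RefSeq (GRCh38.p14), with 12379 tested genes matched. The scripts were tested on simulated data. Depth, 25.8 to 42.4 M counts in the 6 libraries, and the spread between cultures (biological coefficient of variation 0.0942) limit the precision, with a median standard error of 0.116, and intervals cover the spread between cultures only.

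The members and gene lists were chosen with earlier results of these data known. Named genes were the 15 largest changes each way among DEGs with a mean of at least 50 counts and no overlap between groups, all binding partners, and up to 4 members per list, those past the test first. A few selected genes are not reported here. Genes outside this rule are marked as named after their values were seen, which also holds for HSPA5, CDK1, CCNB1, SLC2A1 and VEGFA. Alternatives were DESeq2, limma-voom, edgeR on the 6 libraries compared, RLE factors, no filter on low counts, a mean of at least 100 counts, the replicate number as a block, the length trend removed (spline with 5 degrees of freedom), a threshold of 0.1 and leaving out each of the 6 libraries. A GC trend removed, protein-coding genes only, omission of 4 libraries that stood apart, and the comparison of PD-1 with DSLB-free were added after the data were seen.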

Additional observations from a re-analysis of the deposited data

How the results depend on the processing

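The count of 4140 DEGs between PD-1/TIGIT and plain DSLB hybrids rose to 7080 (3569 higher, 3511 lower) with edgeR on the 6 libraries compared, and lay between 2576 and 3388 when 1 of these libraries was left out (1307 to 1663 higher, 1269 to 1725 lower). Same-numbered cultures did not pair by the correlation of their deviations (−0.067, 0.098 and 0.109), and with the replicate block there were 4272 DEGs (2066 higher, 2206 lower). For PD-1/TIGIT against PD-1 the count of 0 became 1 with DESeq2 on all libraries, 28 with DESeq2 and 1 with edgeR on the 6 compared, and 126 without the filter on low counts. PD-1 against plain DSLB gave 6138 and PD-1 against DSLB-free 3216 with edgeR on the 6 compared, beside 4054 and 4862. For plain DSLB against DSLB-free the count of 2 became 15 and 29 with DESeq2 on all and on 6 libraries, 0 with edgeR on 6, 199 without the filter, 5 with the replicate block, 8 with the length and 7 with the GC trend removed, 1 without the libraries that stood apart, 10 at a threshold of 0.1, and 0 to 3 with 1 plain DSLB library left out. PD-1 and DSLB-free libraries were not left out one at a time. The cause of these differences was not tested. Of 3384 repeats of 180 named genes 3229 kept direction and call, 122 lost and 25 gained the call, 6 without a call changed sign, and 2 (NECTIN4 and PTPRC) had no adjusted p from DESeq2 on all libraries. None with a call reversed. The medians of 35 of 41 lists kept their sign in every alternative. The exceptions lay near 0: PD-L1 stability, SRC, AKT and ERK kinases, NF-kB targets, TGF-beta signaling, T cell markers and other blood cell markers. Depth limits CD274 and NECTIN4, with at most 28 counts in a library of the 6.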
